A study of Homo sapiens with 12 samples.

Results

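The genes described here mark the epithelial or the mesenchymal state of a cell. They are CDH1, CDH2, VIM, EPCAM, ZEB1, ZEB2, SNAI2, TWIST1, KRT8 and KRT18, a named list of 10 of the 17508 genes in the count table, given by gene symbol. RNA sequencing of cells labelled TYK-nu, a line labelled as high-grade serous adenocarcinoma of the ovary, gave exon and intron counts for each gene in 12 libraries. The study imaged where the platinum drug cisplatin lies inside cells and used the sequencing to look for effects of the drug on RNA splicing, and it treated the cells with 15 μM cisplatin or with the solvent DMSO.

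The 4 groups were DMSO for 24 h, cisplatin for 24 h, DMSO for 72 h and cisplatin for 72 h, with 3 libraries in each. All came from the same line, so they show how 1 line behaved in culture, and the study's reporting summary states that its lines were not authenticated. The cells were grown in triplicate, and the labels do not say whether the triplicates were separate cultures, so the p-values measure the spread between these libraries only. The labels do not give cell density or changes of medium, so whatever else differed between the 24 h and 72 h cultures cannot be told apart from time in the comparisons of the times.

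Epithelial cells hold on to each other through E-cadherin, the product of CDH1, and are stiffened by filaments of keratin 8 and keratin 18. Mesenchymal cells more often carry N-cadherin, the product of CDH2, and filaments of vimentin. ZEB1, ZEB2, SNAI2 and TWIST1 encode transcription factors that can repress epithelial genes such as CDH1, often through short E-box sequences, and ovarian carcinoma lines range widely between these states.

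In the DMSO 24 h libraries the exon counts summed to 26272230, 28863204 and 18610268. The cisplatin 24 h libraries held 22898499, 34272262 and 17341818 exon counts. At 72 h the DMSO libraries held 25099072, 26630567 and 41648169 exon counts, and the cisplatin libraries 45825744, 63913081 and 29621504. The deepest libraries were thus in the cisplatin 72 h group. Intron counts were fewer, between 1185012 and 4840181 in a library. An exon count of 0 allowed a level of up to 0.0468 to 0.175 CPM, the count scaled to a fixed library size, taking 3 counts as the most that a count of 0 allows. The bound for introns was 0.644 to 2.47 CPM, and both bounds cover counting error only.

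The label was checked against marker genes before the members were read. Of 9 Mullerian and serous ovarian markers, 7 were in the table and 2, WT1 and MECOM, passed the filter on low counts. The transcription factor genes SOX17 and EMX2 and the folate receptor gene FOLR1 had 0 exon counts in every library, PAX8 had at most 2 counts and ESR1 at most 1. WT1 had 41 to 170 exon counts in a library. The summed exon level of this list was 119, 129 and 129.8 CPM in DMSO at 24 h, 122, 115 and 118 in cisplatin at 24 h, 111, 112 and 114 in DMSO at 72 h, and 122, 116 and 124 in cisplatin at 72 h. MECOM, a transcription factor gene, was its most abundant gene, with 1975 to 7243 exon counts in a library.

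Of 5 endothelial markers, 4 had exon counts and passed the filter, and their summed exon level was above that of the serous list in all 12 libraries. The sum was 2798, 2879.8 and 2916 CPM in DMSO at 24 h and 2817, 2839 and 2884 CPM in cisplatin at 24 h. At 72 h it was 1728, 1784 and 1855 CPM in DMSO and 1960.02, 1836 and 1861 CPM in cisplatin. The sum was lower in each library at 72 h than in any library at 24 h. PECAM1, an adhesion molecule of the endothelial surface, was the most abundant of them and ranked 22 of 17085 genes by exon CPM in DMSO at 24 h. VWF, which encodes von Willebrand factor, had 0 to 53 exon counts. CLDN5 had no exon counts given. Among 19 further endothelial genes chosen after the values were seen, 14 passed the filter, with ECSCR, MMRN1 and EGFL7 the highest per length. CD34, EMCN, CLEC14A, PLVAP and LYVE1 did not pass, and none was above 0.0902 CPM per kb of exon in any library. ERG and SOX18 passed but were low, at 0.684 and 0.432 CPM per kb in DMSO at 24 h. The summed exon level of the 19 was 7132 to 7342 CPM in the 24 h libraries and 7746 to 8035 CPM in the 72 h libraries. It was thus higher at 72 h, where the sum of the 5 markers was lower.

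The other marker lists were mostly at or near 0. None of 6 mesothelial and none of 6 fibroblast markers passed the filter. Of the fibroblast markers only 4 had an exon entry, since PDGFRL was not in the count table and DCN had no exon counts given. Mesothelial markers summed to 0, 0.209 and 0 CPM in DMSO at 24 h, to 0 in the 3 cisplatin 24 h libraries, to 0, 0 and 0.0239 CPM in DMSO at 72 h and to 0.0213, 0 and 0 CPM in cisplatin at 72 h, with PDPN and HAS1 at 0. Fibroblast markers summed to 0.153, 0.209 and 0.162 CPM in DMSO at 24 h and to 0.0437, 0.088 and 0 CPM in cisplatin at 24 h. At 72 h the fibroblast sums were 0.0396, 0.114 and 0.0717 CPM in DMSO and 0.0851, 0.0624 and 0.0335 CPM in cisplatin, with LUM and COL3A1 at 0 and COL1A1 the most abundant. Of 6 leukocyte markers, PTPRC, the pan-leukocyte marker, was at 0 in every library, and 3 passed the filter. CD68, a lysosomal protein gene, made up most of their sum, which was 374, 372 and 322 CPM in DMSO at 24 h and 343, 379.7 and 377 CPM in cisplatin at 24 h. The leukocyte sums at 72 h were 610.4, 641 and 636 CPM in DMSO and 593, 658 and 622 CPM in cisplatin. The serous markers were therefore largely absent, while several endothelial ones were abundant and others were at or near 0. The absence of the serous markers and the abundance of those endothelial ones go against the label in all 12 libraries. No result could therefore be given without such libraries. The libraries are called libraries labelled TYK-nu below, and what accounts for the pattern was not tested.

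**Figure D1:**
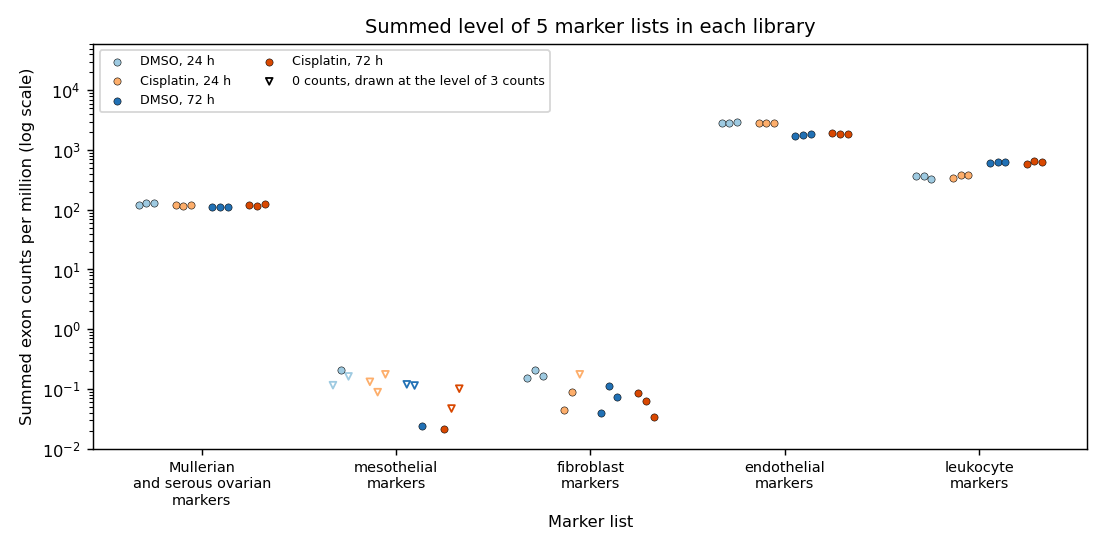
Summed exon CPM (log axis) of 5 marker lists, with 1 point per library coloured by group; open triangles are libraries with 0 counts, drawn at the level of 3 counts. The endothelial list lay above the Mullerian and serous list in all 12 libraries.

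Of the 10 members, 7 passed the exon filter (VIM, EPCAM, ZEB1, ZEB2, TWIST1, KRT8 and KRT18), among 10444 genes that did. The other members, CDH1, CDH2 and SNAI2, had 0 exon counts in every library and entered no test. For introns, 6 of the 10 members were among 9618 genes tested: VIM, ZEB1, ZEB2, TWIST1, KRT8 and KRT18.

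The classical cadherin pair was not detected at this depth. CDH1 (ENSG00000039068, GRCh38 chr16:68737292-68835537, plus strand) had 0 exon counts in 12 of 12 libraries and 3 intron counts in all, 1 each in DMSO 24 h replicate 3, cisplatin 24 h replicate 1 and cisplatin 72 h replicate 2. CDH2 (ENSG00000170558, chr18:27932879-28177946, minus strand) had 0 exon and 0 intron counts in every library. No ratio of CDH2 to CDH1 could therefore be formed, and no change of either gene with drug or time could be measured.

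Another cadherin was abundant. Of 20 other cadherin genes, 14 were in the table, 11 of these had 0 exon counts in all libraries, and CDH5 and CDH15 passed the filter. CDH5, which encodes VE-cadherin, the adhesion molecule of endothelial junctions, had a level per length of 168 ± 5.53 CPM per kb of exon in DMSO at 24 h and 164 ± 6.42 in cisplatin at 24 h (mean ± SD, n = 3 here and below). Its level per length at 72 h was 114 ± 3.96 CPM per kb in DMSO and 126 ± 3.61 in cisplatin. On this scale CDH5 ranked 228 of 17062 genes in DMSO at 24 h. Its level per length was at least 5798-fold higher than that of CDH1 and at least 8189.9-fold higher than that of CDH2 in each library, taking 3 counts per library for each absent gene. CDH15, which encodes M-cadherin, had 4 to 54 exon counts, and the level per length of CDH5 was 571 to 4215 times that of CDH15.

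**Figure D2:**
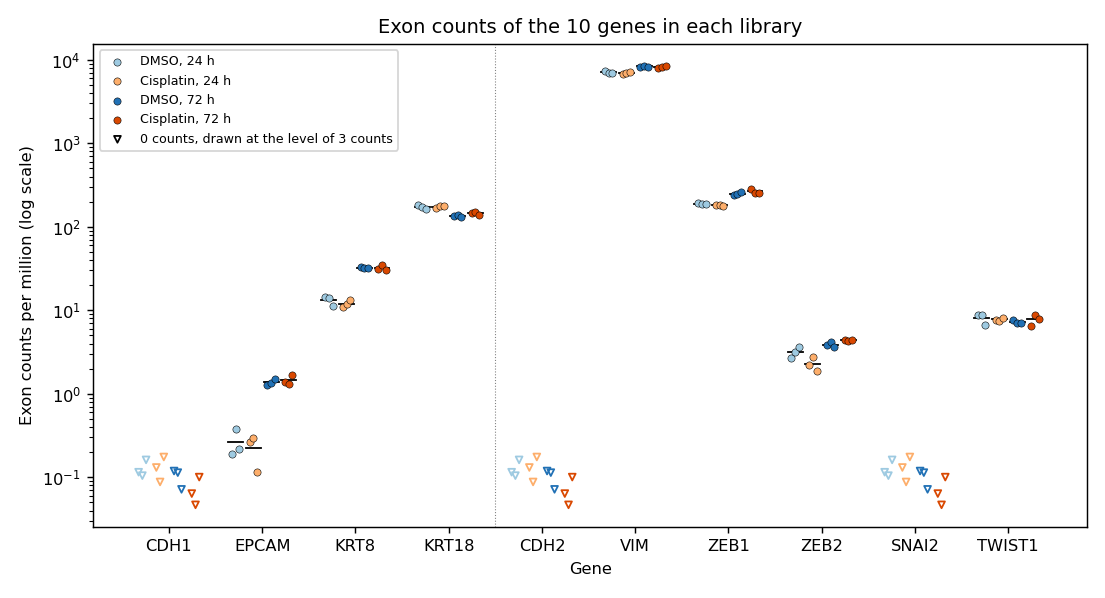
Exon CPM (log axis) of the 10 members, with 1 point per library coloured by group and short lines at group means; open triangles are 0 counts, drawn at the level of 3 counts, and the dotted line parts genes of the epithelial state (left) from those of the mesenchymal state. VIM was near the top of the scale, and EPCAM and KRT8 were higher at 72 h than at 24 h.

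Among the epithelial genes, EPCAM was near the floor at 24 h. EPCAM (ENSG00000119888, chr2:47345158-47387601, plus strand) encodes a surface glycoprotein of epithelial cells. Its exon level was 0.192, 0.384 and 0.216 CPM in DMSO at 24 h and 0.262, 0.293 and 0.117 CPM in cisplatin at 24 h, from 2 to 11 counts in a library. At 72 h it was 1.27, 1.36 and 1.51 CPM in DMSO and 1.38, 1.29 and 1.68 CPM in cisplatin, from 32 to 83 counts. Each 72 h library was above each 24 h library, and the cisplatin and DMSO values overlapped at both times. EPCAM rose from 24 to 72 h by 2.34 ± 0.366 log2 in DMSO (± SE) and by 2.55 in cisplatin, with adjusted p of 5.62e-06 and 1.62e-06 in the edgeR quasi-likelihood test after Benjamini-Hochberg adjustment. EPCAM passed the filter on low counts through its 72 h libraries and was not kept in the fit to the 24 h libraries alone. Without the filter its changes were 2.34 and 2.55 log2, and the calls held in 11 of 11 alternatives in both treatments, with adjusted p up to 9.18e-05 in DMSO and 2.19e-05 in cisplatin. Even at 72 h its level per length stayed low, at 0.568 ± 0.0493 CPM per kb in DMSO and 0.597 ± 0.0822 in cisplatin. Whether more cells of a kind or more RNA per cell lay behind such a rise cannot be told apart in bulk RNA.

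KRT8 (ENSG00000170421, chr12:52897187-52949954, minus strand) and KRT18 (ENSG00000111057, chr12:52948871-52952906, plus strand) encode the type II and type I keratins that pair in simple epithelia. KRT8 exon levels were 14.3, 13.99 and 11.2 CPM in DMSO at 24 h and 11.01, 11.9 and 13.1 CPM in cisplatin at 24 h. At 72 h they were 32.8, 32.5 and 31.8 CPM in DMSO and 30.9, 34.5 and 30.7 CPM in cisplatin. All 72 h libraries were above all 24 h libraries, with overlap between drug and solvent at both times. KRT8 rose with time by 1.29 ± 0.091 log2 in DMSO and by 1.42 in cisplatin (adjusted p 1.42e-11 and 2.73e-12, edgeR quasi-likelihood test after Benjamini-Hochberg adjustment).

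KRT18 moved the other way. Its exon levels were 181, 174 and 164 CPM in DMSO at 24 h and 167, 179 and 178 CPM in cisplatin at 24 h, then 133, 137 and 133 CPM in DMSO and 145, 150.3 and 139.6 CPM in cisplatin at 72 h. The 72 h libraries lay below all 24 h libraries, and at 72 h the 3 cisplatin libraries lay above the 3 DMSO libraries. KRT18 fell by 0.37 log2 (SE 0.0528) in DMSO and by 0.27 log2 in cisplatin, with adjusted p of 1.63e-06 and 8.86e-05 in the same edgeR test with Benjamini-Hochberg adjustment. Within a library, the log2 ratio of KRT8 to KRT18 exon counts was -3.73 ± 0.135 in DMSO at 24 h, -3.87 ± 0.0904 in cisplatin at 24 h, -2.05 ± 0.0296 in DMSO at 72 h and -2.18 ± 0.0523 in cisplatin at 72 h. That ratio, which no library scaling affects, was 1.67 higher at 72 h in DMSO and 1.69 higher in cisplatin, and no value at one time overlapped those at the other (exact two-sided permutation p 0.1, the smallest that 3 against 3 allows; adjusted 0.171 over 12 tests). At 72 h the same ratio was 0.13 lower in cisplatin than in DMSO, again without overlap and with the same exact p of 0.1 (adjusted 0.171), and at 24 h it was 0.14 lower in cisplatin (exact p 0.2, adjusted 0.24; -0.22 to -0.09 with 1 library left out). The level per length of KRT18 was 9.08 to 34.1 times that of KRT8 in the 12 libraries, and 5.55 to 20.8 times with the longest transcript as length.

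The keratin values carry 2 limits. The genes overlap on opposite strands, and the strand option of the counting is not given in the sources used here, although the library kit was directional. GENCODE 44 also names 51 pseudogenes after KRT8 and 68 after KRT18, so both are uncertain where reads could be shared.

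VIM (ENSG00000026025, chr10:17228241-17237593, plus strand), the filament gene of mesenchymal cells, was the most abundant member. Its exon levels were 7425, 6988 and 6916 CPM in DMSO at 24 h and 6774, 7019 and 7104 CPM in cisplatin at 24 h. At 72 h they were 8299, 8409 and 8291 CPM in DMSO and 7897, 8315 and 8453 CPM in cisplatin. The values at 72 h were all above those at 24 h, and drug and solvent overlapped at both times. VIM rose with time by 0.23 ± 0.0432 log2 in DMSO and by 0.24 in cisplatin (adjusted p 6.29e-05 and 3.96e-05, edgeR quasi-likelihood test after Benjamini-Hochberg adjustment). It ranked 2 of 17085 genes by exon CPM and 5 of 17062 by level per length in DMSO at 24 h. The level per length of VIM was 23.2 to 37.1 times that of KRT18, and 30.7 to 49.0 times with the longest transcript as length. The within-library log2 ratio of VIM to KRT18 was 0.60 higher at 72 h in DMSO and 0.51 higher in cisplatin (exact permutation p 0.1, adjusted 0.171). At 72 h the VIM to KRT18 ratio was 0.13 lower in cisplatin than in DMSO without overlap, with the same exact permutation p of 0.1 (adjusted 0.171), and at 24 h it was 0.05 lower (exact p 0.2, adjusted 0.24; -0.06 to -0.03 with 1 library left out).

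ZEB1 (ENSG00000148516, chr10:31318495-31529814, plus strand) was the most abundant of the 4 transcription factor genes per length. ZEB1 exon levels were 191, 186 and 189 CPM in DMSO at 24 h and 181, 185 and 177 CPM in cisplatin at 24 h, with no overlap between these groups. At 72 h ZEB1 stood at 242, 244 and 264 CPM in DMSO and at 286, 255.1 and 255.1 CPM in cisplatin, where the groups overlapped. Each library at 72 h was above each at 24 h. ZEB1 rose with time by 0.40 ± 0.0539 log2 in DMSO and by 0.55 in cisplatin, and the edgeR quasi-likelihood test after Benjamini-Hochberg adjustment gave adjusted p of 5.71e-07 and 4.02e-09.

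ZEB2 (ENSG00000169554, chr2:144364364-144521057, minus strand), the paralog of ZEB1, was scarce. Its exon levels were 2.69, 3.21 and 3.66 CPM in DMSO at 24 h and 2.23, 2.79 and 1.87 CPM in cisplatin at 24 h. At 72 h ZEB2 stood at 3.80, 4.17 and 3.59 CPM in DMSO and at 4.38, 4.29 and 4.42 CPM in cisplatin. The cisplatin libraries held the lowest value, at 24 h, and the 3 highest, at 72 h, while drug and solvent overlapped at 24 h and DMSO overlapped between the times. In cisplatin ZEB2 rose with time by 0.89 ± 0.171 log2 (adjusted p 9.06e-05), whereas in DMSO the log2 change was 0.28 with an adjusted p of 0.156 in the edgeR quasi-likelihood test after Benjamini-Hochberg adjustment. The test of the difference between these changes gave 0.60 ± 0.244 log2 with an unadjusted p of 0.0206 and an adjusted p of 0.496 in edgeR, so the time change of ZEB2 was not shown to differ between drug and solvent. The level per length of ZEB1 was 156 to 286 times that of ZEB2, and 79.2 to 145 times when the longest transcript stood for the gene's length. The within-library log2 ratio of ZEB1 to ZEB2 was 0.42 higher in cisplatin than in DMSO at 24 h (exact permutation p 0.2, adjusted 0.24) and 0.10 lower at 72 h (exact p 0.6, adjusted 0.6), and with 1 library left out these ran from 0.29 to 0.55 and from -0.17 to -0.01. With time that ratio was 0.12 higher in DMSO (exact permutation p 0.4, adjusted 0.436) and 0.39 lower in cisplatin (exact p 0.1, adjusted 0.171), and with 1 library left out these ran from 0.01 to 0.25 and from -0.53 to -0.27.

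TWIST1 (ENSG00000122691, chr7:19020991-19117636, minus strand) had exon levels of 8.71, 8.72 and 6.63 CPM in DMSO at 24 h and 7.69, 7.51 and 8.11 CPM in cisplatin at 24 h. At 72 h they were 7.61, 7.01 and 7.10 CPM in DMSO and 6.57, 8.90 and 7.84 CPM in cisplatin. All 4 groups overlapped. The log2 change of TWIST1 with time was -0.16 in DMSO (adjusted p 0.281) and 0.01 in cisplatin (adjusted p 0.944, edgeR quasi-likelihood test after Benjamini-Hochberg adjustment). SNAI2 (ENSG00000019549, chr8:48917598-48921740, minus strand), which encodes the factor also called Slug, had 0 exon and 0 intron counts in all 12 libraries. The level per length of ZEB1 was at least 383-fold higher than that of SNAI2 in each library.

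By level per length in DMSO at 24 h, the order was VIM at 1374 ± 53.2 CPM per kb, KRT18 at 56.4 ± 2.76, ZEB1 at 21.9 ± 0.291, TWIST1 at 4.02 ± 0.604, KRT8 at 1.91 ± 0.251, ZEB2 at 0.122 ± 0.0187 and EPCAM at 0.109 ± 0.0431. ZEB2 and EPCAM did not differ there beyond their spread, nor in cisplatin at 24 h, where ZEB2 was at 0.0877 ± 0.0177 CPM per kb and EPCAM at 0.0922 ± 0.0388. At 72 h, VIM was at 1609.9 ± 12.7 CPM per kb in DMSO and 1588 ± 56.0 in cisplatin. KRT8 had passed TWIST1 at 72 h, with levels per length of 4.70 ± 0.0766 against 3.63 ± 0.161 CPM per kb in DMSO and 4.65 ± 0.310 against 3.89 ± 0.584 in cisplatin, the latter pair closer than the sum of its SDs. EPCAM had passed ZEB2, which was at 0.147 ± 0.0113 CPM per kb in DMSO and 0.167 ± 0.00268 in cisplatin. Without TMM scaling the order was the same in all 4 groups, and with the longest transcript as length it differed for EPCAM and ZEB2 in cisplatin at 24 h.

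Promoter sequences from RefSeq on GRCh38.p14 reach from 250 bases before to 50 after a start, and 5 of the 10 members matched: CDH2, VIM, ZEB1, ZEB2 and KRT8. CDH1, EPCAM, SNAI2, TWIST1 and KRT18 had no entry. The E-box letters CACCTG, or CAGGTG on the other strand, were searched because factors such as ZEB1 are known to bind them. They occurred in 20.6% of 35116 promoters, at least 3 times in 0.635%. Of the 7 windows listed for ZEB1, the one shown held the letters 3 times, 242 and 85 bases upstream of the start and 33 bases after it, another held them 1 time, and the 5 others held none. The windows of VIM and KRT8, shown because both genes rose with time as ZEB1 did, held none, like those of CDH2 and ZEB2. Capitals mark the letters searched, and a match describes the sequence only. The windows are ZEB1 at chr10:31318966-31319265 (plus strand), VIM at chr10:17227991-17228290 (plus strand) and KRT8 at chr12:52926420-52926719 (minus strand).
ZEB1: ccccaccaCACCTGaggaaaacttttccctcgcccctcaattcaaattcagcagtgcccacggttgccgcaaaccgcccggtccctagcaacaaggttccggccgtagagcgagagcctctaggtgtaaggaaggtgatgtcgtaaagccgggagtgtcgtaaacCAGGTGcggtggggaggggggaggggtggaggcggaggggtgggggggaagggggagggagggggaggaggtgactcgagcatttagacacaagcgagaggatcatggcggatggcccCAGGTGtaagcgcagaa
VIM: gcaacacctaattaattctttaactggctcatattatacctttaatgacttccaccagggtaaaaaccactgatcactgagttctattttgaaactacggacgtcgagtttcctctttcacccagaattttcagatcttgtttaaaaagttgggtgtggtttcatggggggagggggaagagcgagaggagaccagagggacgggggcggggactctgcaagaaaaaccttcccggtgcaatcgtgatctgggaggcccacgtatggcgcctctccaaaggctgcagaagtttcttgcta
KRT8: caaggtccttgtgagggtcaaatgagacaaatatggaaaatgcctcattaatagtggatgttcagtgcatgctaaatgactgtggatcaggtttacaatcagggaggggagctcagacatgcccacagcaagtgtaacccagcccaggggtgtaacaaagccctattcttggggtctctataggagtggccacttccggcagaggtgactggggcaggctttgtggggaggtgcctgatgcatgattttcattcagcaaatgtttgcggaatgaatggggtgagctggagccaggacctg

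Cisplatin was first compared with DMSO at 24 h to ask what the drug changed early. No member was called, 0 of 7, against 0% of the 10444 genes tested. The edgeR quasi-likelihood test after Benjamini-Hochberg adjustment called 0 genes, with 260 at an unadjusted p under 0.05, while DESeq2 called 0 as well. ZEB2 had the largest log2 change of the 7 members, -0.42 ± 0.187 (unadjusted p 0.0346, adjusted p 0.9997 in edgeR with Benjamini-Hochberg adjustment). Of the 7 members, 1, ZEB1, had groups that did not overlap, against 6.42% of all genes tested. The members' median log2 change was -0.06, beside 0.00 over all genes.

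At 72 h no member was called with cisplatin, 0 of 7, against 0.0287% of all genes, which is 3 genes. GPR89A and POLR2J3 were among them, both lower in cisplatin and outside the rule for named genes, so named after their values were seen. The edgeR quasi-likelihood test gave 1311 genes an unadjusted p under 0.05, and DESeq2 called 85 genes. KRT18 was nearest among the members, with a log2 change of 0.11 (unadjusted p 0.0425, adjusted p 0.379 in edgeR with Benjamini-Hochberg adjustment). ZEB2 and KRT18, 2 of 7 members, were higher in each cisplatin library than in any DMSO library, against 18.1% of all genes with groups that did not overlap. The members' median was 0.09, beside 0.00 over all genes.

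The same libraries compared by time showed many more changes. In DMSO, 5 of 7 members changed from 24 to 72 h, beside 65.1% of the 10444 genes tested in edgeR: VIM, EPCAM, ZEB1 and KRT8 rose (4 members, against 32.6% of genes higher) and KRT18 fell (1 member, against 32.5% lower). In cisplatin, 6 of 7 changed, beside 63.5%: those 4 and ZEB2 rose (5 members, against 32% higher) and KRT18 fell (1 member, against 31.5% lower). EPCAM is counted here although it entered the test through its high 72 h libraries, and of the 6 other members tested 3 rose in DMSO and 4 in cisplatin. Groups did not overlap for 5 members in DMSO, against 67.4% of genes, and for 6 in cisplatin, against 67.2%. Their median log2 change was 0.28 in DMSO and 0.55 in cisplatin, beside 0.01 and 0.02 over all genes. The genes that rose with time included epithelial ones (EPCAM, KRT8) and mesenchymal ones (VIM, ZEB1).

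The comparisons share groups, so their calls are not independent of each other. The drug effect did not pass the test of a difference between the times for any member, 0 of 7, against 0% of all genes, where edgeR called 0 genes with Benjamini-Hochberg adjustment and 985 had an unadjusted p under 0.05. DESeq2 called 0 genes in that test as well.

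**Figure D3:**
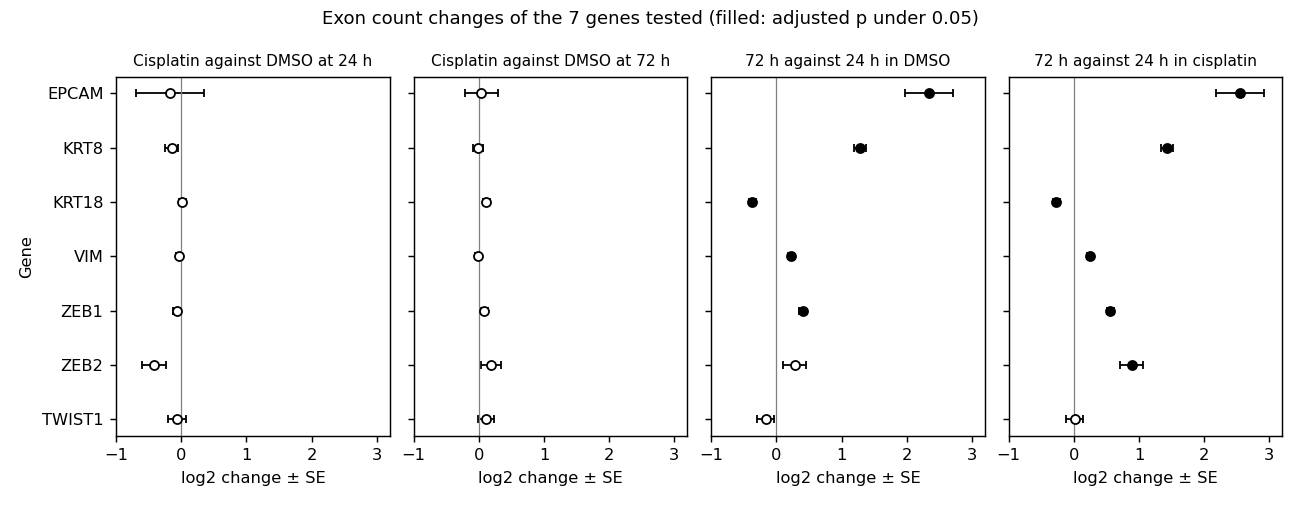
Log2 change of exon counts (horizontal axis, ± SE from the edgeR fit) of the 7 members tested, in the 4 comparisons; filled points had an adjusted p under 0.05. No point was filled for cisplatin against DMSO, and 5 and 6 were filled for the times.

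Intron counts, which can come from RNA not yet spliced, gave a separate reading of the same libraries. What the intron counts of each member came from was not tested. In DMSO, 4 of 6 members changed with time in edgeR, against 33.4% of the 9618 genes tested, and in cisplatin 4 of 6, against 31.8%. Comparing cisplatin with DMSO at 24 h, edgeR gave 481 genes an unadjusted p under 0.05, and DESeq2 called 0. Of the members 0 of 6 were called there, against 0.0208% of genes (SLCO5A1 and HFM1, 2 genes). The count was 0 of 6 at 72 h too, against 0.0416% (RPS19, RPS27A, TMEM237 and TK1, 4 genes; 622 at an unadjusted p under 0.05, and DESeq2 called 3). These 6 genes were named after their values were seen.

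VIM introns moved against VIM exons. The intron level of VIM was 674, 686 and 719 CPM in DMSO at 24 h and 758, 695 and 738 CPM in cisplatin at 24 h, then 552, 563 and 499 CPM in DMSO and 545, 522 and 500.5 CPM in cisplatin at 72 h. All 72 h libraries were below all 24 h libraries. VIM intron counts fell by 0.37 log2 in DMSO and by 0.48 log2 in cisplatin (adjusted p 0.000636 and 9.53e-06, edgeR quasi-likelihood test after Benjamini-Hochberg adjustment). The exon to intron count ratio of VIM was 152, 148 and 126 in DMSO at 24 h and 117, 124 and 136 in cisplatin at 24 h, and at 72 h it was 222, 217 and 238 in DMSO and 203, 219 and 225 in cisplatin. Over all genes together the ratio ranged from 13.0 to 15.0 between libraries. In the edgeR test of the ratio VIM was 0.67 ± 0.0967 log2 higher at 72 h in DMSO and 0.78 higher in cisplatin (adjusted p 2.70e-05 and 2.47e-06 with Benjamini-Hochberg adjustment). The quasi-binomial model did not call VIM in DMSO (adjusted p 0.0812, the highest of 11 alternatives, the lowest being 1.30e-80) and called it in cisplatin (adjusted p 0.0448, the highest of 11, the lowest being 4.98e-152). VIM-AS1, an antisense transcript, overlaps VIM, so its part in either count was not tested.

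KRT8 intron levels were 140.5, 179.7 and 174 CPM in DMSO at 24 h and 185, 162 and 151 CPM in cisplatin at 24 h. At 72 h they were 333, 361 and 374 CPM in DMSO and 329, 366 and 372 CPM in cisplatin, above all the 24 h values. KRT8 introns rose by 1.12 log2 in DMSO and by 1.10 in cisplatin (adjusted p 8.94e-13 and 1.15e-12, edgeR quasi-likelihood test after Benjamini-Hochberg adjustment). KRT8 exons and introns thus both rose. The exon to intron ratio of KRT8 was from 0.778 to 1.46 in the 12 libraries, beside 13.0 to 15.0 over all genes together.

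KRT18 introns had few counts, 27 to 136 in a library. Their level was 14.3, 37.1 and 19.1 CPM in DMSO at 24 h and 33.1, 35.0 and 33.8 CPM in cisplatin at 24 h, then 48.0, 28.1 and 39.4 CPM in DMSO and 29.6, 29.2 and 28.6 CPM in cisplatin at 72 h. The DMSO libraries spread more widely than the cisplatin ones and overlapped between the times. KRT18 introns rose by 0.69 log2 with time in DMSO (adjusted p 0.0188) and had a log2 change of -0.22 in cisplatin (adjusted p 0.474), both in the edgeR quasi-likelihood test after Benjamini-Hochberg adjustment. The difference between these changes, -0.91 log2, had an unadjusted p of 0.00664 and an adjusted p of 0.736 in edgeR. The DMSO call was lost without DMSO 24 h replicate 1 (0.41 log2, adjusted p 0.215), DMSO 24 h replicate 3 (0.57, 0.0830), DMSO 72 h replicate 1 (0.53, 0.121) or DMSO 72 h replicate 3 (0.67, 0.0558), in a range of edgeR and DESeq2 adjusted p from 0.000257 to 0.215 over 11 alternatives. In the edgeR ratio test KRT18 fell by 1.0045 log2 in DMSO (adjusted p 0.00594 with Benjamini-Hochberg adjustment), a call that the quasi-binomial model did not make (adjusted p 0.326). Over 11 alternatives the KRT18 ratio change in DMSO was from -1.51 to -0.67 log2, with adjusted p from 8.85e-11 to 0.326.

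ZEB1 intron levels were 205, 189 and 173 CPM in DMSO at 24 h and 202, 172 and 175 CPM in cisplatin at 24 h, then 244, 205 and 246 CPM in DMSO and 236, 228 and 236 CPM in cisplatin at 72 h. In DMSO the groups overlapped, and in cisplatin they did not. ZEB1 introns rose with time by 0.29 log2 in DMSO and by 0.35 in cisplatin (adjusted p 0.0268 and 0.0071, edgeR quasi-likelihood test after Benjamini-Hochberg adjustment). The ZEB1 call in DMSO was lost without DMSO 24 h replicate 2 (0.29 log2, adjusted p 0.0668), DMSO 24 h replicate 3 (0.24, 0.129), DMSO 72 h replicate 1 (0.26, 0.0940) or DMSO 72 h replicate 3 (0.24, 0.135), in a range of edgeR and DESeq2 adjusted p from 0.0115 to 0.135 over 11 alternatives.

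ZEB2 intron levels were 5.28, 9.65 and 10.6 CPM in DMSO at 24 h and 6.28, 4.69 and 7.42 CPM in cisplatin at 24 h, then 4.69, 8.25 and 7.87 CPM in DMSO and 16.4, 12.4 and 10.3 CPM in cisplatin at 72 h. The cisplatin libraries did not overlap between the times, while the DMSO libraries did. ZEB2 introns rose with time by 1.16 log2 in cisplatin (adjusted p 0.0102) and had a log2 change of -0.25 in DMSO (adjusted p 0.668, edgeR quasi-likelihood test after Benjamini-Hochberg adjustment). The difference between these changes, 1.41 log2, had an unadjusted p of 0.0109 and an adjusted p of 0.762 in edgeR. The ZEB2 call was lost without cisplatin 24 h replicate 2 (0.95 log2, adjusted p 0.0897) or cisplatin 72 h replicate 1 (0.97, 0.0727), in a range of edgeR and DESeq2 adjusted p from 0.00711 to 0.0897 over 11 alternatives. TWIST1 introns, with 2 to 22 counts in a library, had log2 changes with time of -0.05 in DMSO and -0.78 in cisplatin (adjusted p 0.952 and 0.235, edgeR with Benjamini-Hochberg adjustment). Without cisplatin 24 h replicate 1 the TWIST1 change in cisplatin was -1.25 with an adjusted p of 0.0481 in edgeR, in a range of adjusted p from 0.0481 to 0.711 over 11 alternatives.

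**Figure D4:**
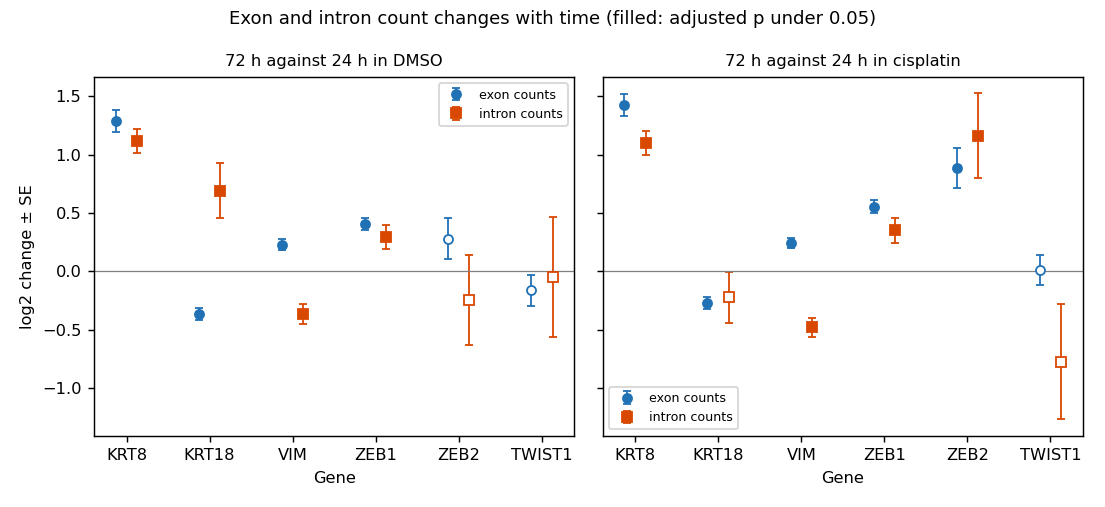
Log2 change from 24 to 72 h (vertical axis, ± SE from the edgeR fits) of exon counts (circles) and intron counts (squares) of the 6 members tested for both; filled symbols had an adjusted p under 0.05. VIM exons and introns changed in opposite directions in both treatments.

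The study's own test of the exon to intron ratio, a logistic regression, counts fragments and leaves out the spread between replicates. It was rerun here on genes with both counts at least 1 in all 6 libraries of the comparison. The numbers of genes called in this rerun are not those printed in the study's figure. With a Wald test and Benjamini-Hochberg adjustment it called 3 of 6 members with cisplatin at 24 h, against 11.5% of genes, 2 of 6 at 72 h, against 11.4%, 4 of 6 with time in DMSO, against 33.7%, and 4 of 6 with time in cisplatin, against 40.6%. The edgeR quasi-likelihood test of the ratio, which includes that spread, called 0 of 6 members with cisplatin at 24 h, against 0% of genes (0 genes, with 594 at an unadjusted p under 0.05), and 0 of 6 at 72 h, against 0.0213% (RPS19 and POLR2J3, 2 genes, named after their values were seen, with 585 at an unadjusted p under 0.05). With time it called 2 of 6 members in DMSO, VIM and KRT18, against 11.5%, and 1 of 6 in cisplatin, VIM, against 11.9%. A quasi-binomial model called 0 of these 6 members with cisplatin at either time, 0 with time in DMSO, where edgeR had called VIM and KRT18, and 1 with time in cisplatin, VIM. Over all genes that model called 0 of 9678 and 0 of 10011 with cisplatin, with 530 and 683 at an unadjusted p under 0.05, and 64 of 9739 and 97 of 9818 with time, so it called few genes of any kind.

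At 24 h the logistic calls were VIM (-0.20 log2, adjusted p 2.04e-07), KRT8 (-0.29, 0.0244) and KRT18 (-0.60, 0.00688), each with a lower exon to intron ratio in cisplatin, where the edgeR adjusted p was 0.809, 0.857 and 0.761. Of the 1110 genes called in that comparison 1036 were lower, with a median log2 change of -0.11 over all genes, so the direction is that of most calls. With 1 library left out the genes called ran from 245 to 1555 and the members called from 1 to 3. The KRT8 call was lost without cisplatin 24 h replicate 1 (-0.18), cisplatin 24 h replicate 2 (-0.27), DMSO 24 h replicate 1 (-0.14) or DMSO 24 h replicate 2 (-0.29). The KRT18 call was lost without cisplatin 24 h replicate 2 (-0.53) or DMSO 24 h replicate 1 (-0.28). Across 11 alternatives VIM had adjusted p from 5.63e-11 to 0.882, KRT8 from 0.00078 to 0.897 and KRT18 from 0.000178 to 0.882.

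At 72 h the logistic regression called KRT18 higher (0.45 log2, adjusted p 0.00713) and ZEB2 lower (-0.78, 0.0332) in cisplatin, with edgeR adjusted p of 0.795 and 0.757. Of the 1144 genes called, 173 were higher and 971 lower, with a median log2 change of -0.07 over all genes. With 1 library left out the genes called ran from 729 to 1138 and the members called from 0 to 3. The KRT18 call was lost without DMSO 72 h replicate 1 (0.32) or DMSO 72 h replicate 3 (0.40). The ZEB2 call was lost without cisplatin 72 h replicate 1 (-0.62), DMSO 72 h replicate 1 (-0.60) or DMSO 72 h replicate 2 (-0.82). VIM, with a log2 change of -0.08 in all libraries, was called without cisplatin 72 h replicate 2 (-0.10), cisplatin 72 h replicate 3 (-0.10) or DMSO 72 h replicate 2 (-0.11). The adjusted p ranged from 0.000476 to 0.795 for KRT18, from 0.0244 to 0.757 for ZEB2 and from 0.0341 to 0.934 for VIM over the alternatives.

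With time in DMSO the logistic regression called VIM, ZEB1 and KRT8 higher and KRT18 lower, and in cisplatin VIM, ZEB1, TWIST1 and KRT8 higher. Most genes called were higher too, 2195 of 3278 in DMSO and 2843 of 3984 in cisplatin, with median log2 changes over all genes of 0.09 and 0.13. In DMSO the ZEB1 call (0.18 log2) was lost without DMSO 24 h replicate 1 (0.13) or DMSO 72 h replicate 2 (0.13), and the KRT8 call (0.20) without DMSO 24 h replicate 2 (0.20), DMSO 24 h replicate 3 (0.06) or DMSO 72 h replicate 1 (0.14). In cisplatin the TWIST1 call (0.96 log2) was lost without cisplatin 24 h replicate 2 (0.39), cisplatin 24 h replicate 3 (0.82) or cisplatin 72 h replicate 2 (0.47).

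The wider set of genes around these members was read from fixed lists. Neither the members nor the 15 lists held a gene called in edgeR with cisplatin at 24 h or at 72 h, against 0% and 0.0287% of all genes, as above. Among the named genes DESeq2 called NES and VCL with cisplatin at 72 h, with log2 changes of 0.19 and 0.17. The medians below are log2 changes with time of the genes tested, to be read beside 0.01 over all genes in DMSO and 0.02 in cisplatin. The counts called with time are to be read beside 65.1% of all genes in DMSO (32.6% higher and 32.5% lower) and 63.5% in cisplatin (32% and 31.5%).

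Of 14 other transcription factor genes of the mesenchymal state, 6 passed the filter. With time 0 of these rose and 2 fell in DMSO (SNAI1, FOXC2), and 1 rose (TCF4) and 1 fell (SNAI1) in cisplatin; PRRX1, GSC, SOX9 and KLF8 were at 0 in all libraries. The median of this list was -0.09 in DMSO and -0.01 in cisplatin. SNAI1, the paralog of SNAI2 and a repressor of CDH1, had 47, 40 and 32 exon counts in DMSO at 24 h and 34, 29 and 28 in cisplatin at 24 h. At 72 h SNAI1 had 8, 9 and 18 counts in DMSO and 20, 23 and 22 in cisplatin, although the libraries were on the whole deeper. SNAI1 fell by 2.12 log2 (SE 0.366) in DMSO and by 1.41 log2 (SE 0.344) in cisplatin, with adjusted p of 2.05e-05 and 0.00101 in the edgeR quasi-likelihood test after Benjamini-Hochberg adjustment. FOXC2 fell by 0.32 log2 in DMSO and had a log2 change of -0.05 in cisplatin, where the test of the difference gave 0.27 with an adjusted p of 0.501 in edgeR. TCF4 rose by 0.30 log2 in cisplatin, with an adjusted p of 0.0303 in edgeR and a difference of 0.33 from DMSO (adjusted p 0.544). The TCF4 call was lost without cisplatin 24 h replicate 1 (0.25 log2), cisplatin 24 h replicate 3 (0.30) or cisplatin 72 h replicate 3 (0.26).

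Genes of the epithelial programme mostly had few counts or none. Of 12 epithelial transcription factor genes, 3 passed the filter (GRHL1, KLF5 and FOXA1), 0 were called with time in either treatment, and GRHL2, GRHL3, OVOL2, EHF and KLF4 were at 0 in all libraries. The median of these 3 was -0.23 in DMSO and -0.14 in cisplatin. GRHL1 had a log2 change of -0.23 in DMSO and passed the threshold without DMSO 24 h replicate 3 (-0.30). FOXA1 had a log2 change of -0.64 in cisplatin and passed it without cisplatin 24 h replicate 2 (-0.88), without cisplatin 72 h replicate 3 (-0.80) or without the filter on low counts (-0.64). Of 16 epithelial splicing factor and surface protein genes, 3 passed the filter (MUC1, LSR and PERP), and ESRP1, a splicing regulator of epithelial cells, had 0 to 5 exon counts in a library. PERP, a desmosome-associated membrane protein gene, fell by 0.26 log2 in cisplatin and was the only 1 of these called, beside list medians of -0.17 in DMSO and -0.24 in cisplatin. The log2 change of PERP was -0.21 in DMSO, and the test of the difference gave -0.04 (adjusted p 0.946 in edgeR). The PERP call was lost without cisplatin 24 h replicate 1 (-0.14 log2), cisplatin 72 h replicate 2 (-0.24) or cisplatin 72 h replicate 3 (-0.24), and in DMSO PERP passed the threshold without DMSO 72 h replicate 2 (-0.29) or without the filter on low counts (-0.22).

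Of 12 adherens junction genes 9 were tested, and 1 rose and 5 fell in DMSO, as in cisplatin, beside 65.1% and 63.5% of all genes called, with medians of -0.12 and -0.11. JUP, which encodes plakoglobin of adherens junctions and desmosomes, had 37, 38 and 14 exon counts in DMSO at 24 h and 19, 52 and 14 in cisplatin at 24 h, then 137, 148 and 178 in DMSO and 207, 352 and 138 in cisplatin at 72 h. JUP rose by 2.07 ± 0.232 log2 in DMSO and by 2.11 ± 0.230 log2 in cisplatin (adjusted p 3.61e-08 and 2.59e-08, edgeR quasi-likelihood test after Benjamini-Hochberg adjustment). NECTIN1 fell by 0.96 log2 in DMSO and by 0.82 log2 in cisplatin. CTNNB1, which encodes beta-catenin, fell by 0.59 log2 in DMSO and by 0.42 log2 in cisplatin, and VCL, which encodes vinculin, fell by 0.52 and by 0.36 log2. CTNNA1, which encodes alpha-catenin, had the highest level per length of this list, 85.1 ± 1.32 CPM per kb in DMSO at 24 h. Its log2 change with time was -0.12 in DMSO, a call lost without DMSO 24 h replicate 2 (-0.11). In cisplatin the log2 change of CTNNA1 was -0.11, a call lost in the fit to the 6 libraries compared (-0.11) and without the filter on low counts (-0.11). That call was also lost without cisplatin 24 h replicate 3 (-0.11), cisplatin 72 h replicate 2 (-0.11) or cisplatin 72 h replicate 3 (-0.10).

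Of 17 tight junction genes 10 were tested, and 5 rose and 3 fell in DMSO while 5 rose and 1 fell in cisplatin, with medians of 0.16 and 0.15. CLDN7 rose by 0.84 log2 in DMSO and by 0.64 in cisplatin, and CLDN1, another claudin gene, by 0.55 and 0.63. CGN, which encodes cingulin, fell by 0.63 log2 in DMSO and by 0.64 log2 in cisplatin. PATJ, a polarity scaffold gene, rose by 0.56 log2 in DMSO and by 0.76 in cisplatin, and its DMSO call was lost without DMSO 24 h replicate 1 (0.53), DMSO 24 h replicate 3 (0.51), DMSO 72 h replicate 2 (0.56) or DMSO 72 h replicate 3 (0.32). TJP1, which encodes ZO-1, fell by 0.25 log2 in DMSO, a call lost without DMSO 24 h replicate 1 (-0.23), DMSO 72 h replicate 2 (-0.22) or DMSO 72 h replicate 3 (-0.24). TJP1 had a log2 change of -0.17 in cisplatin, which passed the threshold without cisplatin 72 h replicate 1 (-0.26), and the difference between the treatments was 0.09 (adjusted p 0.852 in edgeR). F11R, which encodes the junctional adhesion molecule JAM-A, fell by 0.13 log2 in DMSO, a call lost without DMSO 24 h replicate 3 (-0.12) or DMSO 72 h replicate 1 (-0.10). F11R had a log2 change of -0.03 in cisplatin, 0.10 from that in DMSO (adjusted p 0.63 in edgeR), and the highest level per length of the list, 113 ± 2.25 CPM per kb in DMSO at 24 h.

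Of 11 desmosome genes, DSP, DSG2, DSG3, DSC2, DSC3, PKP1 and PKP2 were at 0 in all libraries and 2 passed the filter, with medians of 0.55 in DMSO and 0.41 in cisplatin. PKP3, a plakophilin gene, rose by 1.28 log2 in DMSO and by 0.92 in cisplatin. PKP4 fell by 0.18 log2 in DMSO and had a log2 change of -0.11 in cisplatin, 0.07 from that in DMSO (adjusted p 0.757 in edgeR), which passed the threshold in DESeq2 and without cisplatin 72 h replicate 1 (-0.15). Of 16 other keratin genes 4 passed the filter, and 2 rose and 1 fell with time in both treatments, with medians of 0.19 in DMSO and 0.13 in cisplatin. KRT15, a basal keratin gene, rose by 1.501 ± 0.0736 log2 in DMSO and by 1.35 in cisplatin (adjusted p 1.81e-14 and 1.08e-13, edgeR quasi-likelihood test after Benjamini-Hochberg adjustment). KRT10 rose by 0.45 log2 in DMSO and by 0.28 in cisplatin, and KRT80 fell by 0.35 and by 0.22 log2. KRT15 had a level per length of 8.33 ± 0.266 CPM per kb in DMSO at 24 h and 23.5 ± 1.05 in DMSO at 72 h, 3.95 to 5.76 times that of KRT8 in the 12 libraries. KRT1, KRT4, KRT6A, KRT16, KRT20 and KRT23 were at 0 in all libraries.

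Of 15 other intermediate filament and linker genes 8 were tested, and 0 rose and 6 fell with time in DMSO while 1 rose and 3 fell in cisplatin, with medians of -0.44 and -0.12. LMNB1, which encodes lamin B1 of the nuclear envelope, fell by 1.62 log2 (SE 0.0519) in DMSO and by 1.37 log2 in cisplatin, NES, which encodes nestin, fell by 1.08 and by 0.90 log2, and LMNB2 fell by 1.01 and by 0.84 log2. SYNC, which encodes syncoilin, rose by 2.01 log2 in cisplatin and had a log2 change of 1.15 in DMSO. The difference was 0.86 (adjusted p 0.827 in edgeR). SYNC stood at 0.0396 ± 0.0264 CPM per kb in DMSO and 0.0405 ± 0.0603 in cisplatin at 24 h. At 72 h it stood at 0.0832 ± 0.00858 in DMSO and 0.126 ± 0.0290 in cisplatin. The cisplatin 72 h group, the highest, may have taken SYNC past the filter on low counts, so its rise is a description only. The SYNC call was lost without cisplatin 24 h replicate 1 (1.66), cisplatin 24 h replicate 2 (1.17) or cisplatin 72 h replicate 1 (1.80). LMNA, 1 of the genes that fell in DMSO, had a log2 change of -0.13 there. The LMNA call was lost without DMSO 24 h replicate 1 (-0.09), DMSO 24 h replicate 2 (-0.13) or DMSO 72 h replicate 2 (-0.11). DES, NEFL and NEFM were at 0 in all libraries.

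Of the other cadherins, 1 rose and 1 fell with time in DMSO and 1 fell in cisplatin, with medians of 0.28 and -0.04. CDH5 fell by 0.56 log2 (SE 0.0477) in DMSO and by 0.38 log2 in cisplatin, with adjusted p of 3.35e-10 and 2.25e-07 in the edgeR quasi-likelihood test after Benjamini-Hochberg adjustment. CDH15 rose by 1.12 log2 in DMSO and had a log2 change of 0.30 in cisplatin, -0.82 from that in DMSO (adjusted p 0.648 in edgeR). The CDH15 call was lost without DMSO 24 h replicate 1 (0.87), DMSO 24 h replicate 3 (0.99), DMSO 72 h replicate 1 (1.03) or DMSO 72 h replicate 3 (1.14). PECAM1 fell by 0.82 log2 in DMSO and by 0.74 log2 in cisplatin and made up most of the sum of the endothelial list, which was lower at 72 h, while the sum of the endothelial genes chosen after the values were seen was higher at 72 h. KDR, a receptor gene of that list, rose by 0.15 log2 in cisplatin and lost the call without cisplatin 72 h replicate 3 (0.13), with a log2 change of -0.01 in DMSO and a difference of 0.16 (adjusted p 0.512 in edgeR). Of the 4 endothelial markers tested, 1 fell in DMSO, and 1 rose and 1 fell in cisplatin, with medians of -0.05 and -0.23. Of the 14 tested among the endothelial genes chosen after the values were seen, 3 rose and 8 fell in DMSO, and 4 rose and 6 fell in cisplatin, with medians of -0.25 and -0.13. The endothelial genes thus did not move in 1 direction, and whether their changes had a part in those of the members was not tested.

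Of the 2 serous markers tested, 2 fell with time in DMSO and 0 were called in cisplatin, with medians of -0.47 and -0.11. WT1 fell by 0.78 log2 in DMSO, a call lost without DMSO 24 h replicate 2 (-0.53), and had a log2 change of -0.26 in cisplatin (difference 0.52, adjusted p 0.584 in edgeR). MECOM fell by 0.15 log2 in DMSO, a call lost without DMSO 24 h replicate 2 (-0.14) or DMSO 24 h replicate 3 (-0.13), and had a log2 change of 0.03 in cisplatin (difference 0.18, adjusted p 0.498 in edgeR). Of the 3 leukocyte markers tested, 2 rose and 1 fell in both treatments, with medians of 0.82 and 0.77, and CD68 rose by 0.82 log2 in DMSO and by 0.77 in cisplatin. The other rise was that of CD3E, 1.15 log2 in DMSO and 1.31 in cisplatin. In DMSO the CD3E call was lost without DMSO 24 h replicate 1 (1.22), DMSO 24 h replicate 2 (0.87), DMSO 72 h replicate 1 (1.03) or DMSO 72 h replicate 3 (0.87), and in cisplatin without cisplatin 24 h replicate 2 (0.95). The fall was that of LYZ, with 2 to 15 exon counts in a library at 24 h and 0 to 7 at 72 h. LYZ passed the filter on low counts through its 24 h libraries, where it was higher, so its fall is a description only. No mesothelial or fibroblast marker entered a test.

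Of 31 mesenchymal effector genes 21 were tested, and 9 rose and 5 fell with time in DMSO while 7 rose and 5 fell in cisplatin, beside 65.1% and 63.5% of all genes called. Their median log2 change was 0.19 in DMSO and 0.20 in cisplatin, beside 0.01 and 0.02 over all genes. AXL, a receptor tyrosine kinase gene, rose by 0.92 log2 in DMSO and by 1.18 in cisplatin, and FAP by 1.03 and 0.95. TAGLN2 fell by 0.58 log2 in DMSO and by 0.61 log2 in cisplatin, MYL9 by 0.74 and 0.50 log2, and THY1 by 0.40 and 0.43 log2. FBN1 fell by 1.39 log2 in DMSO and had a log2 change of -0.22 in cisplatin, a difference of 1.16 with an adjusted p of 0.534 in edgeR. TAGLN, an actin-binding protein gene, rose by 0.97 log2 in DMSO, a call lost without DMSO 72 h replicate 3 (0.72), and had a log2 change of 0.14 in cisplatin (difference -0.83, adjusted p 0.534 in edgeR). MMP14 had the highest level per length of this list, 512 ± 9.86 CPM per kb in DMSO at 24 h, while GREM1 and WNT5A were at 0.

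**Figure D5:**
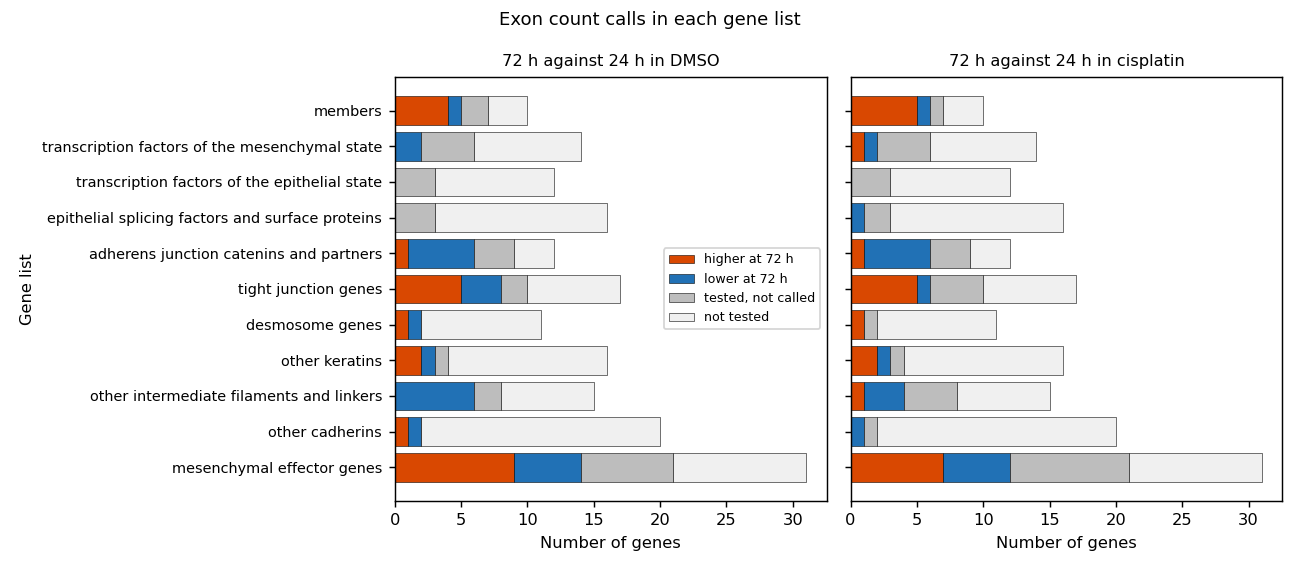
Number of genes (horizontal axis) in 11 lists that were higher or lower at 72 h than at 24 h (edgeR, adjusted p under 0.05), tested and not called, or not tested, in DMSO (left) and cisplatin (right). Most lists held called genes in both directions and many genes that did not pass the filter.

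The genes whose exon levels followed each member most closely over the 12 libraries are given as a description, since all 12 points share the step between 24 and 72 h. For VIM they were SMARCD3, ZFPL1 and NAT14 (Pearson r of log2 CPM 0.988, 0.987 and 0.985), and for ZEB1 they were ZNF532, CALD1 and LAMB1 (0.987, 0.987 and 0.986). For KRT8 they were ZP3, SHMT2 and CRTAP (0.998, 0.996 and 0.996), for KRT18 C2CD4C, SCARB1 and AARS2 (0.987, 0.984 and 0.98) and for EPCAM FAM53A, MAP1LC3A and C2orf42 (0.988, 0.987 and 0.985). ZEB2 was followed by ZNF391, TAS1R3 and LTA (0.947, 0.946 and 0.942). TWIST1, whose exon counts were not called with time, had lower values, with BABAM1 and ICAM3 at 0.828 and 0.813.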

How the data were processed

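Poly(A) RNA of 12 libraries was sequenced on a single HiSeq lane after directional library preparation. The authors deposited the counts used here, whole numbers per gene for exons and for introns, not normalized. According to the submitters' processing notes, FastQC 0.11.8, Trim Galore 0.6.0, HISAT2 2.1.0 and HTSeq (version not given in the sources used here) were used on GRCh38, with Ensembl 98 annotation, exons in intersection-strict and introns in union mode. Symbols, positions and exon lengths came from GENCODE 44 for 17485 of 17508 genes. Of the 17508, 17085 had an exon entry and 16595 an intron entry.

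Exon and intron counts were each fitted with edgeR 4.0.16 in R 4.3.3 (filterByExpr, TMM factors of 0.988 to 1.03 for exons, glmQLFit and glmQLFTest), 12 libraries in 1 fit, and p-values were adjusted by Benjamini-Hochberg over all genes tested (threshold 0.05). Standard errors were the log2 change divided by the square root of F. CPM values used TMM library sizes, and levels per length divided them by kilobases of merged exons. The exon to intron ratio was tested by logistic regression (both counts at least 1 in all 6 libraries of the comparison) and by edgeR (at least 10 of both in the same 3 libraries). Ratios of 2 members within a library were tested by exact permutation. Likeness used log2 CPM with a prior count of 2. Python 3.11.15, numpy 2.4.6, scipy 1.17.1, pandas 2.3.3 and matplotlib 3.10.9 were used, and the tests were tested on simulated data.

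Alternatives were DESeq2 1.42.0, relative log expression factors, no filter, a fit to the 6 libraries compared, a replicate block, a quasi-binomial model, a stricter ratio filter, other lengths and scalings, and each library left out. The text names all members and, from 15 fixed lists, up to 3 genes with the largest rise and fall among those called, those with the highest levels per length, and up to 3 genes most like each member. The members and lists were chosen with earlier results of these data known. The listed genes FOXC1, SOX4, CTNNA2, CLDN4, KRT86, CDH12, CDH13, CDH18, CDH20, CDH23, CDH24, MUC16, MSLN, PDGFRL and CD14 were not analysed here.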

Additional observations from a re-analysis of the deposited data

How the results depend on the processing

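The exon calls of members with time held under all 11 alternatives, 5 of 7 in DMSO and 6 of 7 in cisplatin. No called value changed sign. Over the named genes, 3363 of 3594 exon values kept their side of the threshold and direction, 41 lost and 12 gained the call, and 178 uncalled values changed sign; for introns 235 of 264 kept it, 10 lost, 1 gained and 18 changed sign, and for the ratio 182 of 256, 51, 3 and 20.

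Genes called in exons with cisplatin were 0 at 24 h and 7 without the filter (0 to 1 with 1 library left out), and 3 at 72 h, 85 in DESeq2 and 154 without the filter (0 to 72). The interaction went from 0 to 20 without the filter (0 to 1). Intron calls at 24 h went from 2 to 0 in DESeq2 and 5 without the filter (0 to 2), and at 72 h from 4 to 26 in the fit to 6 libraries and 19 without the filter (3 to 9). With 1 library left out, members with intron calls were 2 to 4 in DMSO and 3 to 5 in cisplatin.

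Logistic ratio calls fell from 1110 at 24 h to 0 in edgeR and 0 quasi-binomial (245 to 1555 with 1 library left out), from 1144 at 72 h to 2 and 0 (729 to 1138), from 3278 in DMSO to 1075 and 64 (2822 to 3049) and from 3984 in cisplatin to 1118 and 97 (2965 to 3890). Members went from 3 to 0 and 0 (1 to 3), from 2 to 0 and 0, and 1 with the stricter filter (0 to 3), from 4 to 2 and 0 (3 to 4) and from 4 to 1 and 1 (3 to 4). Of these, edgeR and the quasi-binomial model include the spread between replicates, by construction. The edgeR ratio filter can be read in 2 ways. The values of 1 reading, with the minimums met in any 3 libraries for each kind (9393 genes), were seen before the reading reported here (9380 genes) was taken, so the reported reading was chosen after seeing the data. The earlier reading called 0, 2, 1076 and 1123 genes and 0, 0, 2 and 1 members.

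With the replicate number as a block, exon calls were 0, 2, 6751 and 6538, intron calls 0, 3, 3154 and 3007 and ratio calls 1029, 1273, 3267 and 3990, and the counts of members called did not change. Same-numbered libraries did not deviate together (r from -0.108 to 0.102, mean 0.0162), so the numbers do not pair them, and sign-flip tests of pairs cannot go below p 0.25 (exact). The CDH2 to CDH1 ratio could not be computed, since both were at 0. The causes of the other moves were not tested.

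At this depth CDH1, CDH2 and SNAI2 were bounded but not compared, EPCAM, ZEB2 and KRT18 introns rested on few counts, and 3 libraries a group give permutation tests no p under 0.1. The strand option of the counting and the identity of the cells bear on each value above. The strand option was not tested, and the identity was checked against marker genes only.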
